A study of Homo sapiens with 6 samples.

Results

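Loci of the spliceosomal small nuclear RNAs U1 and U2 were examined in chromatin immunoprecipitation sequencing of RBMX and RPA1 in 293T cells. Peaks were taken from the 4 deposited lists when they lay within 10 kb of RNU1-1, RNVU1-6, RNVU1-14, RNVU1-15, RNVU1-27, RNVU1-30, RNVU1-34 or CCDC200. All peaks in a 100-kb window of chromosome 17 (hg38) that holds the U2 repeat, with its lower end 21.4 kb below CCDC200, were added. This gave 20 of 1743 peaks: 8 at the 7 U1 genes and 12 at the U2 locus. Merged where they share a base, they form 13 of 859 regions. The loci were chosen by their peaks in these same lists, so the presence of a peak and its size are described here without a test.

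The cells were 293T, an established line derived from human embryonic kidney. They carried either Flag-RBMX or Flag-RPA1 from a transfection, and every sample had camptothecin, an inhibitor of topoisomerase I, for 24 hours. RBMX belongs to the hnRNP proteins, which bind RNA and act in splicing, and RPA1 is the large subunit of the complex that coats single-stranded DNA. Each protein was precipitated through its Flag tag in 2 samples, and the 2 inputs have no list of their own in what follows. The proteins came from transfected genes, no untreated cells were compared, and the labels do not say whether the replicates were separate cultures.

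The spliceosome removes introns from pre-messenger RNA. U1 pairs with the start of the intron and U2 with the branch point, and both are short, abundant transcripts made by RNA polymerase II from strong promoters of their own. U1 has a small family of main genes, RNU1-1 to RNU1-4, and a larger family of variant genes, the RNVU1 genes, that differ from it by few bases. U2 genes stand in a tandem array in which each unit holds a copy of the gene and its flanking sequence. Because these copies are so alike, a short read may be placed on the wrong copy. How reads with several positions were treated is not given in the sources used here.

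In replicate 1, peaks were called without a control at a p-value cutoff of 1e-05, from 20199680 tags (sequenced read ends kept after filtering) for RBMX and 20089972 for RPA1. In replicate 2 they were called against the input of the same protein at 1e-12 from 6664290 and 6889249 tags. The local background was disabled in that calling, so the input did not remove local copy number or mappability. The 2 sets also differ in caller, read length and background, so replicate and processing cannot be told apart, and values are compared within a replicate number. There is 1 library for each protein and processing, so no difference between the proteins has a replicate check. The fold enrichment is the authors' value, relative to each list's own background.

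The only U1 region with peaks of both proteins reached the promoter of LINC01719, a long non-coding RNA gene beside RNVU1-6. It is shown because it is the stretch of a U1 locus for which both a peak and a RefSeq promoter sequence (GRCh38.p14) were at hand. Capitals mark the 116 bases that lie in both the RBMX and the RPA1 peak, and the RBMX peak holds all 300 bases.
LINC01719 promoter, chr1:146052346-146052645, + strand: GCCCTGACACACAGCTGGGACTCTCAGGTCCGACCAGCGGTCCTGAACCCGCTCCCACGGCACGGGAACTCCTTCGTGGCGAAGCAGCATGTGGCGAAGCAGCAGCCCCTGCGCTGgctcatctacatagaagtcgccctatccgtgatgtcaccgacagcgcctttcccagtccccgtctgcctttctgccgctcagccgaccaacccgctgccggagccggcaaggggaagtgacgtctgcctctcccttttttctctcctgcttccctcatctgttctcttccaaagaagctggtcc
The window starts 102 bp above the upper end of RNVU1-6, counted in coordinates, and its GC content was 62.0% against a median of 58.7% over 35116 promoter windows of this length. RBMX peaks of replicate 1 reached 64 of these windows (0.182%) and RPA1 peaks 145 (0.413%). In replicate 2 the shares were 0.0114% for RBMX and 0.00570% for RPA1, and LINC01719 was not among them.

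For CCDC200, the protein-coding gene beside the U2 array, 2 promoter windows were at hand, and the one at 43228574 to 43228873 is not shown. The second sequence is from the other window. It is shown because the U2 region that all 4 lists held lies beside it. Given here are the 250 bases before the transcript start, and none is in capitals because no peak reached them.
CCDC200 promoter, chr17:43231270-43231519, − strand: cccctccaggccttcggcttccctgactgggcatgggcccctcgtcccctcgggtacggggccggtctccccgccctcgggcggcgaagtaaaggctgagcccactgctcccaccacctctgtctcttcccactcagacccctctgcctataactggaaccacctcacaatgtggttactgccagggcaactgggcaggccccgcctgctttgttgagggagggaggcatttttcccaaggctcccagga
The nearest peak began 190 bp beyond this window, on the side away from the gene. This window and that of LINC01719 were searched over all 300 bases on both strands. Neither held the octamer ATGCAAAT, the run ACTTACCTG of the U1 5′ end or the run GTAGTA that U2 uses at the branch point. These occur in 1.77%, 0.188% and 3.41% of all promoter windows.

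RPA1 in replicate 1 had a peak at all 7 U1 genes, RBMX in replicate 1 at 1 of them (RNVU1-6), and both proteins in replicate 2 at 0 of them. Over all 59716 annotated genes, the share with a peak within 10 kb was 0.896% for RPA1 and 0.583% for RBMX in replicate 1, and 0.404% and 0.489% in replicate 2. Nothing is read from the difference, since the U1 genes were chosen for these peaks. In 6 of the 7 U1 loci the RPA1 peak lay over the gene itself.

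**Figure D1:**
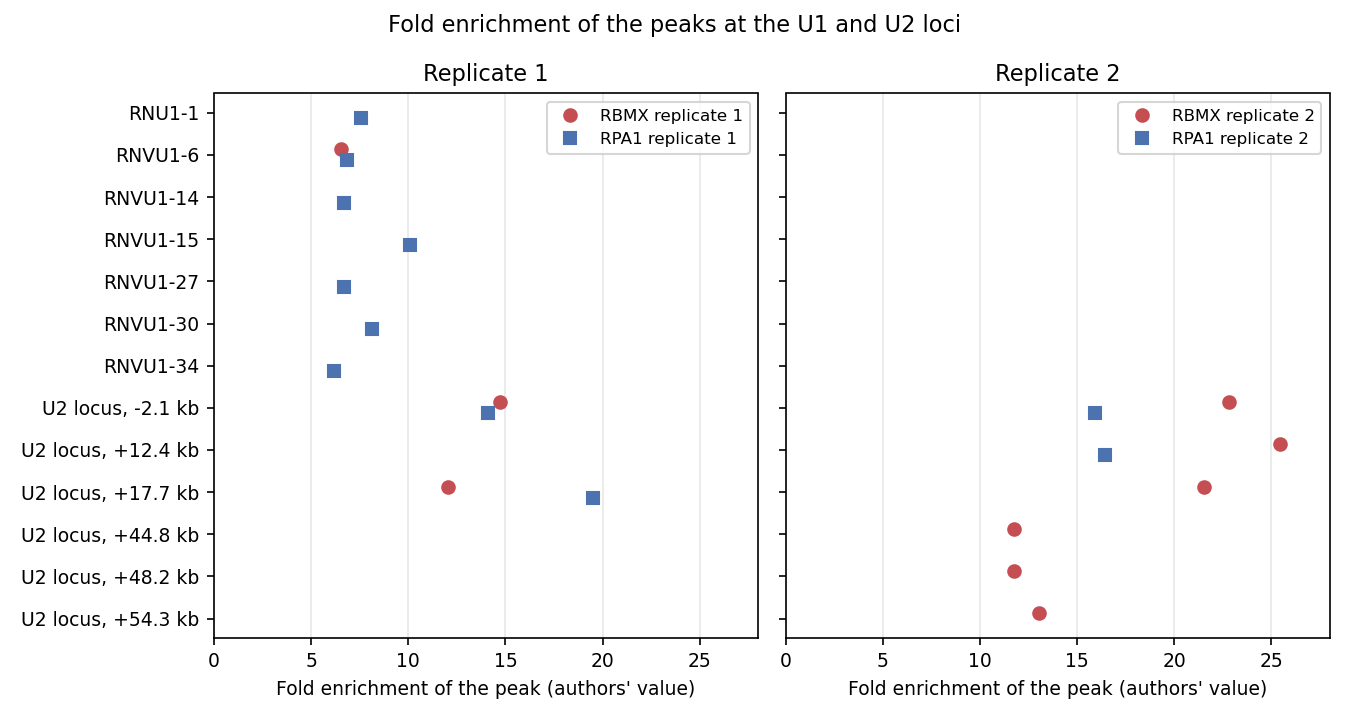
Fold enrichment of each peak (authors' value, horizontal axis from 0) at the 7 U1 genes and the 6 regions of the U2 locus, named by their distance in kb from RNU2-1; circles are RBMX and squares RPA1, with 1 library each and no error bar. U1 rows hold replicate 1 values between 6.19 and 10.08, and every replicate 2 value lies in a U2 row.

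RNVU1-15, a U1 variant gene at 144412576 to 144412740 on chromosome 1, had the U1 peak of largest fold. The RPA1 peak of replicate 1 lay at 144412256 to 144412961, held 24 tags in 706 bp and had a fold of 10.08, and the other 3 lists had no peak there. RNVU1-30, at 149636760 to 149637013, lies together with the long non-coding RNA gene LINC00869 under an RPA1 peak at 149636316 to 149637203 with 23 tags in 888 bp and a fold of 8.12. Both were thus replicate 1 RPA1 peaks alone.

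The peaks at the next variants were of smaller fold. At RNVU1-14, at 145281116 to 145281279, the RPA1 peak of replicate 1 ran from 145280936 to 145281614, with 17 tags in 679 bp and a fold of 6.72. It had the weakest p-value of the U1 peaks, 5.21 as −log10, just past the cutoff. At RNVU1-27, at 148522601 to 148522765, the RPA1 peak ran from 148522432 to 148523151, with 22 tags in 720 bp and also a fold of 6.72. RBMX replicate 1 and both replicate 2 lists had no peak at either gene.

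RNVU1-6, at 146052081 to 146052244 on chromosome 1, was the U1 gene with peaks of both proteins. In replicate 1 the RBMX peak at 146051508 to 146052650 held 37 tags in 1143 bp with a fold of 6.52, and the RPA1 peak at 146051493 to 146052461 held 35 tags in 969 bp with a fold of 6.86. They shared 954 bp, and their summits were 178 bp apart. The replicate 2 lists had their nearest peaks 1947604 bp (RBMX) and 1947617 bp (RPA1) away.

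RNVU1-34 lies on chromosome 17, unlike the other U1 members, and is annotated as a pseudogene. Its RPA1 peak of replicate 1 at 58679204 to 58679938 held 24 tags in 735 bp with a fold of 6.19, the smallest of the U1 peaks. The same peak overlaps the protein-coding genes TEX14, needed for the bridges between germ cells, and IGBP1C, and the U1 pseudogene RNU1-52P lies 1467 bp from it. Which of these genes the tags belong to cannot be told apart from a peak list.

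RNU1-1, at 16514122 to 16514285 on chromosome 1, is a main U1 gene, and the data did not place a peak on it. The RPA1 peak of replicate 1 that brought it into the set lay 4404 bp below the gene, at 16509004 to 16509718, with 21 tags in 715 bp and a fold of 7.56. It overlapped no annotated gene, and RNU1-1 was the nearest. It is the farthest of the U1 peaks inside the 10 kb limit, at 6.24 as −log10 of the p-value. Just outside it were an RBMX peak of replicate 1 at 12257 bp from RNU1-4, over the tRNA gene TRG-CCC5-1, with a fold of 4.43, and peaks of both proteins over the pseudogene CROCCP2, the nearest to RNU1-3. Those at CROCCP2 had folds of 3.86 for RBMX and 4.52 for RPA1, and lay 20991 and 20930 bp from the gene. None of the 4 main U1 genes had a peak over its body in any list.

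The 6 RPA1 peaks over a U1 gene were centred close to it. Their summits lay between 156 bp below and 73 bp above the middle of the gene, in order of coordinate, and 5 of the 6 summits were inside the gene, which is 164 to 254 bp long. Of the 334 chromosome peaks of this list, 56.6% had their summit inside some annotated gene. That share counts genes of any length, while the 6 peaks were taken for lying over a short gene, so the measures are unlike. The peaks extended 169 to 588 bp below and 190 to 386 bp above the gene, so they covered flanking sequence on both sides. The strand of the U1 genes is not given in the annotation table used, so upstream and downstream are not distinguished. The RBMX summit at RNVU1-6 was inside the gene and 22 bp from its middle.

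**Figure D2:**
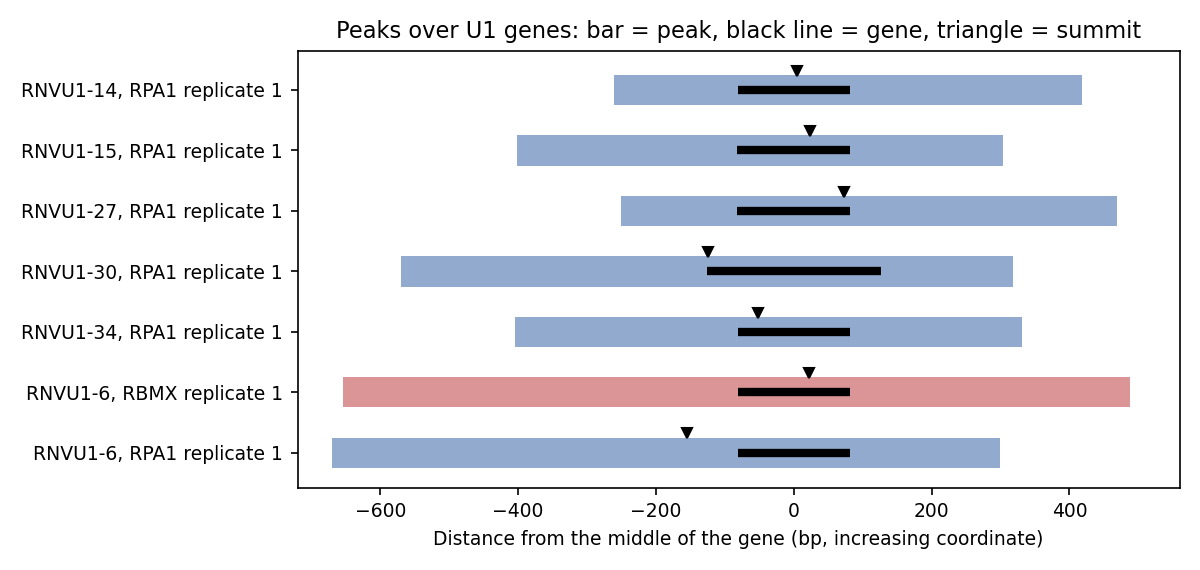
Peaks over U1 genes in replicate 1 (bars, RPA1 in blue and RBMX in red), drawn as distance in bp from the middle of the gene in order of coordinate, with the gene as a black line and the summit as a triangle. The RPA1 summit at RNVU1-6 lies 156 bp below the middle of the gene and outside it, while the other 6 summits lie inside the gene.

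As a group the 7 RPA1 peaks at U1 genes were of middling strength. Their fold ranged from 6.19 to 10.08 with a median of 6.86, against a median of 6.16 over the 360 peaks of the list. Per length of peak they held 25.04 to 36.1 tags per kb, with a median of 30.6 against 31.6 for the list. By fold they ranked between 60 and 177 of 360. They were narrower than the list, with a median width of 720 bp against 884.5 bp. Their −log10 p-values ran from 5.21 to 9.91, and a stricter p-value of 1e-12 kept 0 of the 7, against 60 of all 360 peaks (16.7%). The U1 peaks of RPA1 are thus present at the authors' threshold and absent at the stricter one.

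Replicate 2 was less deep. Scaled by library tags alone, the 8 replicate 1 peaks at U1 genes would hold 5.83 to 12.2 tags over their whole width at replicate 2 depth, and the smallest summit called there held 13 tags for RBMX and 16 for RPA1. At the U2 locus the scaled values count whole peaks, while the replicate 2 values count summits, so the measures are unlike. The RBMX peak with 18 tags at 17.7 kb scaled to 5.94 and had 32 summit tags in replicate 2. The RPA1 peak with 29 tags at 17.7 kb scaled to 9.94, and RPA1 had no peak there in replicate 2. The peaks at −2.1 kb scaled to 19.5 (RBMX) and 16.8 (RPA1) and had 34 and 30. The part of depth in the missing U1 peaks was not tested, and it cannot be told apart from caller, control and cutoff. In replicate 1 the smallest peak of either list held 14 tags, but the cutoff was on the p-value and not on tags. The RPA1 peak at RNVU1-14, with 17 tags, was just past it at 5.21 as −log10. An RBMX signal below or somewhat above 14 tags at the 6 genes with RPA1 alone may thus have gone unlisted.

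Neighbouring genes were not used by the rule. A tRNA gene lies within 10 kb of 4 of the 7 members (RNU1-1, RNVU1-14, RNVU1-15 and RNVU1-27), at 6300 to 6527 bp, and in each of the 4 it is a gene for the asparagine tRNA. Of the 15 other U1 and U1 variant genes annotated as small nuclear RNA, 7 have a tRNA gene within 10 kb, and for 4 of these the nearest is also a gene for the asparagine tRNA. An NBPF gene, of a family duplicated along chromosome 1, lies within 10 kb of 3 of the 7 members, RNVU1-14, RNVU1-15 and RNVU1-27, and of 1 of the 15 others. The 3 genes lie 8620 to 8650 bp from their NBPF gene. Whether reads of alike copies were shared among them was not tested.

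At the U2 locus both proteins had peaks in both replicates. The annotation places 13 small nuclear RNA genes here, RNU2-1 and 12 unnamed genes of 191 or 192 bp, whose starts span 66.25 kb. The last of the 13, LOC124904144, lies just beyond the window, and the table gives the unnamed genes no family, so their reading as U2 rests on the known place of the array. Their spacing was 6131 to 6161 bp in 5 of 12 intervals and between 1259 and 14804 bp in all. RBMX and RPA1 had 2 peaks each in replicate 1, and 6 and 2 in replicate 2. They fall into 6 regions, of which 1 was held by all 4 lists, another by 3 lists, another by 2, and the remaining 3 by the second RBMX library. The sites are named below by the distance of the region from the lower end of RNU2-1.

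**Figure D3:**
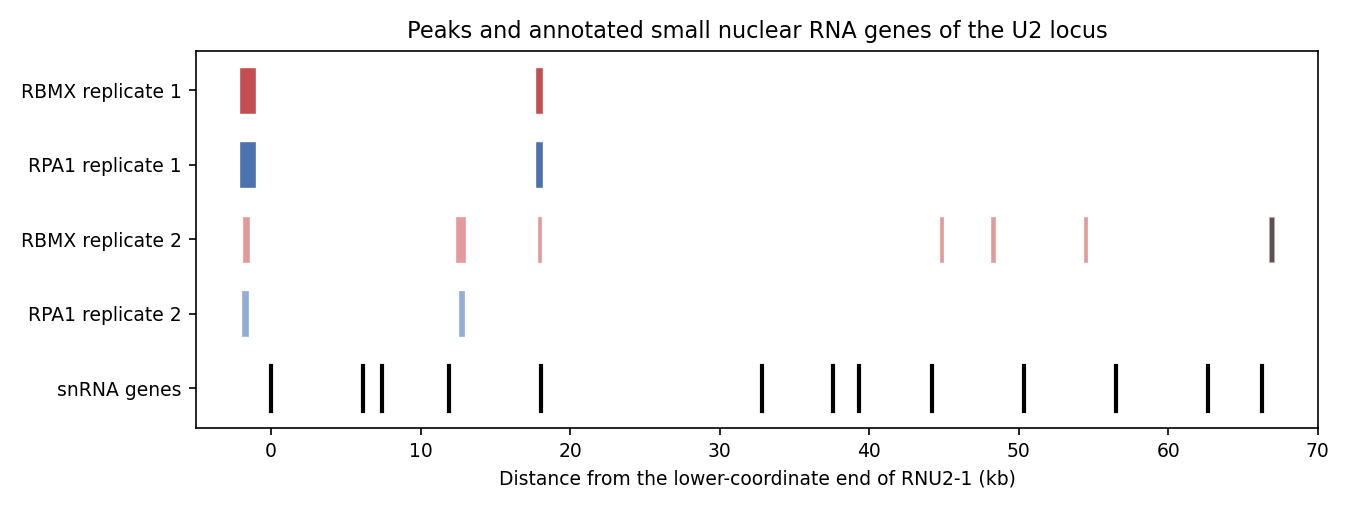
Map of the U2 locus to scale, in kb from the lower-coordinate end of RNU2-1, with peaks of each list as bars and the 13 annotated small nuclear RNA genes as black lines. The site at −2.1 kb has a bar in all 4 lists, the sites at 44.8, 48.2 and 54.3 kb have one in RBMX replicate 2 alone, and the grey bar is the RBMX peak just outside the window.

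The site at −2.1 kb lies between CCDC200 and RNU2-1, 440 bp above the upper end of CCDC200. In replicate 1 the RBMX peak at 43231709 to 43232747 held 59 tags with a fold of 14.7, and the RPA1 peak at 43231712 to 43232750 held 49 tags with a fold of 14.11, both in 1039 bp. In replicate 2 the RBMX peak at 43231892 to 43232296 had a summit pileup of 32.62 (34 tags) and a fold of 22.8, and the RPA1 peak at 43231818 to 43232264 had a pileup of 20.44 (30 tags) and a fold of 15.9. CCDC200 is transcribed toward lower coordinates, so the site lies upstream of its start. No list had a peak over the body of CCDC200 or of RNU2-1.

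The replicate 2 peaks at this site were 405 and 447 bp wide and lay within the replicate 1 peaks. Their summits, at 43232101 and 43232142, and the RPA1 summit of replicate 1, at 43232146, were 1644 to 1689 bp below RNU2-1. The RBMX summit of replicate 1, at 43232548, was 1242 bp below it. The 2 summits of replicate 1 were thus 402 bp apart, and those of replicate 2 were 41 bp apart.

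The site at 17.7 kb covers the lower edge of LOC124904138, an unnamed small nuclear RNA gene at 43251829 to 43252019. In replicate 1 the RBMX peak at 43251516 to 43251899 held 18 tags with a fold of 12.03, and the RPA1 peak at 43251516 to 43251904 held 29 tags with a fold of 19.49, the eighth largest of its list. In replicate 2 the RBMX peak at 43251634 to 43251874 had a pileup of 30.7 (32 tags) and a fold of 21.5, and RPA1 had no peak. Summits of the 3 lists lay 98 to 122 bp below the gene, within 24 bp of each other. This was the only small nuclear RNA gene of the array that any peak overlapped.

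The site at 12.4 kb was found in replicate 2 alone. The RBMX peak at 43246178 to 43246781 had a pileup of 36.45 (38 tags) and a fold of 25.4, the largest of the locus in that list, and the RPA1 peak at 43246339 to 43246725 had a pileup of 21.12 (31 tags) and a fold of 16.4. The summits were 9 bp apart, 953 bp (RBMX) and 944 bp (RPA1) above the lower end of LOC124904137. The RBMX peak began 314 bp above the end of that gene.

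The remaining 3 sites were RBMX peaks of replicate 2 with no RPA1 peak. At 44.8 kb the peak (43278550 to 43278749) had a pileup of 16.31, or 17 tags. At 48.2 kb (43281959 to 43282202) it was also 16.31, and at 54.3 kb (43288132 to 43288352) it was 18.23, or 19 tags. Their folds were 11.7, 11.7 and 13.0, under the list's median of 17.6, and their widths were 200 to 244 bp. The smallest RPA1 summit called in that replicate held 16 tags, against 17 to 19 in these RBMX peaks.

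Some peak edges lay at like distances from a gene in different repeat units. The peaks at 48.2 and 54.3 kb ended 1937 and 1939 bp below the next gene, LOC124904142 and LOC124904145. They started 6173 bp apart, and these genes start 6152 bp apart. Their summits matched less closely, at 2108 bp (48.2 kb) and 2004 bp (54.3 kb) below the lower end of the next gene. The RBMX peaks of replicate 2 at 12.4 and 44.8 kb began 314 and 382 bp above a gene. A further RBMX peak of replicate 2 at 43300553 to 43300849, which began 553 bp beyond the window and was not a member, began 322 bp above LOC124904144. Its pileup was 21.11 (22 tags) and its fold was 15.0. Its summit lay 644 bp above the lower end of that gene. The summits at 44.8 and 12.4 kb lay 637 and 953 bp above the lower end of theirs, so the one at 12.4 kb stood apart. The deposited lists do not show whether these peaks are separate sites or reads of alike units.

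Within each list the U2 peaks were placed by fold. They ranked 19 and 36 of 258 for RBMX and 8 and 26 of 360 for RPA1 in replicate 1. In replicate 2 they ranked 168, 196, 218 and 464 of 598, with the peaks at 44.8 and 48.2 kb tied at 518, for RBMX, and 272 and 282 of 527 for RPA1. Lists of different length and caller are not compared by rank, so this shows no change in binding. Past the stricter thresholds of 1e-12 in replicate 1 and 1e-20 in replicate 2, the site at −2.1 kb was in all 4 lists, and the RBMX peak at 17.7 kb in replicate 1 was lost. Those thresholds kept 19.0% and 16.7% of RBMX and RPA1 peaks in replicate 1 and 91.3% and 84.1% in replicate 2.

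**Figure D4:**
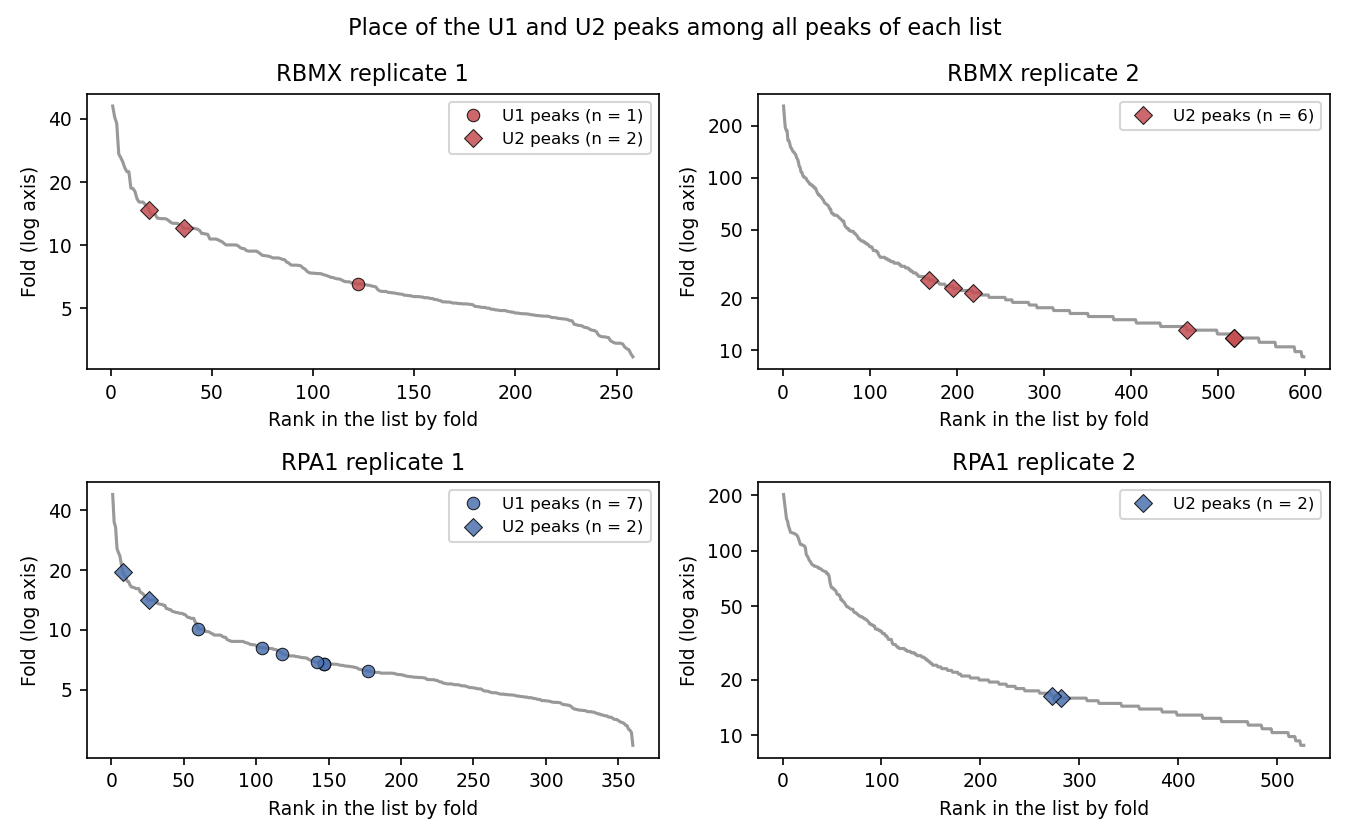
Fold of every peak against its rank in each of the 4 lists (grey line, log axis), with U1 peaks as circles and U2 peaks as diamonds. The U1 peaks of RPA1 replicate 1 lie at ranks 60 to 177 of 360, below both U2 peaks of that list at ranks 8 and 26.

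RBMX and RPA1 peaks coincided, sharing at least 1 bp, in 5 pairs within a replicate number. The U2 site at −2.1 kb gave 1 pair in each replicate. In replicate 1 all 3 RBMX peaks of these loci coincided with an RPA1 peak (41.5% of all 258 RBMX peaks did), and 3 of 9 RPA1 peaks coincided with RBMX (30.3% of all 360). At U1 genes this was 1 of 7 RPA1 peaks. In replicate 2, 2 of 6 RBMX peaks at the U2 locus coincided with RPA1, against 76.3% of the list, and both RPA1 peaks coincided with RBMX, against 87.5%. These counts are too small to set the loci apart from their lists.

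Between replicate numbers, both RBMX peaks of replicate 1 at the U2 locus overlapped an RBMX peak of replicate 2, against 25.8% of the 229 chromosome peaks of that list. For RPA1 it was 1 of 2 peaks at the U2 locus and 0 of 7 at the U1 genes, against 15.0% of 334. In the other direction, 2 of 6 RBMX peaks (17.8% of 432) and 1 of 2 RPA1 peaks (17.6% of 376) of replicate 2 were found in replicate 1. The U2 region at −2.1 kb was 1 of 44 regions that all 4 lists held.

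Where both proteins had a peak, no difference in tag level beyond counting error was detectable. The ratio of RBMX to RPA1, in tags per kb of peak with each library's total divided out, was 0.891 at RNVU1-6 in replicate 1 (exact binomial 95% interval 0.546 to 1.46). At the U2 locus in replicate 1 it was 1.20 (0.806 to 1.79) at −2.1 kb and 0.625 (0.327 to 1.16) at 17.7 kb. In replicate 2, from tags at the summit over library tags, it was 1.17 (0.696 to 1.98) at −2.1 kb and 1.27 (0.768 to 2.11) at 12.4 kb. All 5 intervals hold 1 and cover counting error only, and their width does not show that the proteins were equal.

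**Figure D5:**
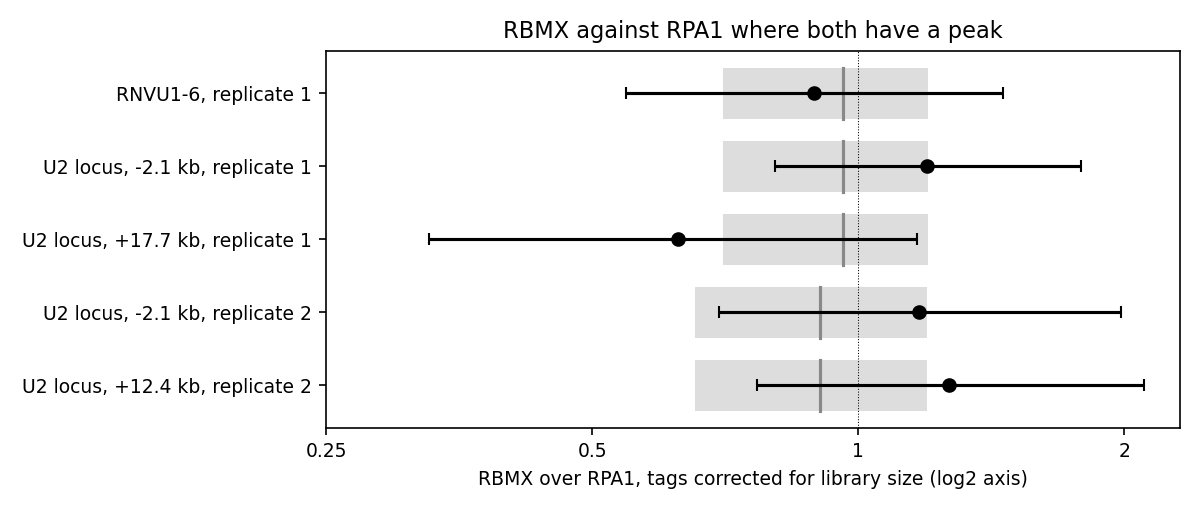
Ratio of RBMX to RPA1 tags, corrected for library size, for the 5 pairs of coinciding peaks (points, log2 axis) with exact binomial 95% intervals. Behind them are the 10th to 90th percentile (grey) and median (grey line) of all coinciding pairs of the same replicate. Points lie between 0.625 and 1.27, and every interval crosses 1.

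Over all coinciding pairs, the same ratio had a median of 0.961 (10th to 90th percentile 0.704 to 1.20, 110 pairs) in replicate 1 and 0.905 (0.653 to 1.20, 482 pairs) in replicate 2. The point at 17.7 kb in replicate 1 lay under the 10th percentile, and that at 12.4 kb in replicate 2 lay over the 90th. They rest on 18 RBMX and 29 RPA1 tags, and on 38 and 31, and their intervals reach into the range of the other pairs.

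Peaks were also counted at all small nuclear RNA genes. By symbol, 49 genes with symbols of the U1, U1 variant, U2, U4, U5, U6, U7, 7SK and minor spliceosome families do not have a pseudogene's symbol, and the 12 unnamed genes of the array are not among them. Of these, 8 had an RPA1 peak within 10 kb in replicate 1, namely the 7 U1 members and RNU2-1, and 2 had an RBMX peak, RNVU1-6 and RNU2-1. In replicate 2 it was 1 gene, RNU2-1, for each protein. None of the genes for U4 (2), U5 (5), U6 (5), U7 (1), 7SK (1) or the minor spliceosome (4) had a peak within 10 kb in any list, and neither had RNU2-2, another U2 gene, on chromosome 11. Since 0.404% to 0.896% of all annotated genes had a peak within 10 kb in a list, a count of 0 over so few genes does not set them apart.

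Pseudogenes of these families, taken by symbol, numbered 2104. Of these, 3 (0.143%) had an RBMX and 2 (0.0951%) an RPA1 peak within 10 kb in replicate 1 (all annotated genes: 0.583% and 0.896%). In replicate 2 it was 3 (0.143%) and 1 (0.0475%), against 0.489% and 0.404%. The differences were not tested, and no peak overlapped any of these 2104. RNVU1-34, a pseudogene by annotation but not by symbol, is counted among the 49 genes above. Of those 49, 41 are annotated as small nuclear RNA. The RPA1 peak at 1467 bp from RNU1-52P is the one over RNVU1-34. RNU7-92P on chromosome 20 had peaks of both proteins in replicate 1, at 8182 bp (RBMX) and 8627 bp (RPA1), and RNU6-1274P on chromosome 10 had both in replicate 2, at 7094 and 7099 bp. The others, each with RBMX alone, were RNU6-465P and RNU4-18P in replicate 1 and RNU6-327P and RN7SKP133 in replicate 2.

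Likeness was measured over the 4 lists as the Euclidean distance between log2 folds, with a fold of 1 where a list had no peak. Nearest to the U2 site at −2.1 kb were 2 regions of chromosome 7 and 1 of chromosome 16, at distances of 0.21, 0.47 and 0.64, all held by 4 lists. Their nearest annotated genes were LOC101060796, LOC102723842 and ANKRD26P1, which lay 972152, 407214 and 87737 bp away. Nearest to the RNVU1-6 region were regions near RNU7-92P, in LOC105374343 and near WDR97, at distances of 0.05, 0.15 and 0.26, each held by both replicate 1 lists and by neither of replicate 2. With 4 lists this likeness is a description of fold and presence.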

How the data were processed

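Peak lists of 4 precipitations were analysed. Replicate 2 is numbered in the labels, and replicate 1 was numbered in accession order. Replicate 1 lists were made with MACS 1.4.2, with no control and a regional background of 10000 bp, per the file headers. Their deposited counts are tags within a peak, and their deposited score, a multiple of the log10 p-value, was turned into −log10 here. Replicate 2 lists were made with MACS2 2.2.4 against an input, with the local background disabled, per the file headers. Their deposited signal is the pileup at the summit, with the larger library scaled towards the smaller. Undoing that scale gave whole tags within 0.02 for 100% of summits. The deposited −log10 p-values and the deposited fold (a ratio to background) are the peak callers' own. At most 1 tag per position was kept, and tags were 50 bp in replicate 1 and 150 bp in replicate 2, per the file headers. Bowtie2, deepTools 3.4.1 and hg38 are named in the submitters' processing notes. Since the background was not local to a peak in replicate 2 and had no input in replicate 1, local copy number and mappability were not removed.

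Distances and overlaps were computed in Python 3.11.15 (pandas 2.3.3, NumPy 2.4.6), intervals with SciPy 1.17.1 and plots with matplotlib 3.10.9, and the steps were checked on simulated lists. Gene positions are those of RefSeq on GRCh38.p14 (59716 placed genes), in which all 8 members matched and which lists no strand or exon. The promoters of CCDC200 and LINC01719 came from RefSeq. Sequences of the U1 and U2 genes were not used here, so a planned comparison of member promoters was not run. Members and lists were chosen with earlier results of these data known. Named were all members, every gene of the small nuclear RNA list within 10 kb of a peak, the neighbours of member peaks, and the 3 regions most like each of 2 reference regions. Other distances, overlaps, thresholds, windows and measures were tried.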

Additional observations from a re-analysis of the deposited data

How the results depend on the processing

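Of 54 recalculations of 19 results, 43 left the value within 1.5 times the count, or within the counting interval of a ratio, and 11 did not. At the stricter p-value, replicate 1 held 1 of 8 loci in each list (the U2 locus) in place of 2 for RBMX and 8 for RPA1. That threshold kept 19.0% of all RBMX and 16.7% of all RPA1 peaks of replicate 1. Coinciding peaks in replicate 1 then fell from 3 to 1 in both lists, and small nuclear RNA genes with a peak from 2 to 1 for RBMX and from 8 to 1 for RPA1. With overlap of the gene required, small nuclear RNA genes numbered 1 for RBMX replicate 1 and 0 for each protein in replicate 2. RNU2-1 had been counted in replicate 2 at 1494 and 1526 bp. These counts leave out the 12 unnamed genes of the array. Of these, LOC124904138 lay under a peak of RBMX in both replicates and of RPA1 in replicate 1. Leaving out a replicate gave 1 to 2 loci for RBMX and 1 to 8 for RPA1, the lower values without replicate 1. The ratio at RNVU1-6 was 1.05 when tags were not divided by width, against 0.891, so its direction is not resolved. Widening the U2 window to take in the next peak, chosen after seeing the data, could not change the 8 counts of loci and coinciding peaks. Every list already held the U2 locus, and that RBMX peak coincided with no RPA1 peak. These 8 are among the 43 recalculations above and say nothing of stability. No paired analysis was possible because the labels give the proteins only the number 2 in common. The U1 peaks hold 17 to 37 tags each, which limits the precision of their values.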

Other observations

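The authors' fold and the tags gave different sizes for RBMX against RPA1 in replicate 2. At the U2 sites at −2.1 kb and 12.4 kb the ratio of folds was 1.43 and 1.55, while the ratio of summit tags over library tags was 1.17 and 1.27. Over the 482 coinciding pairs of that replicate the median ratio of folds was 1.12 and that of tags was 0.905, on the other side of 1. The scale applied to the precipitated library, computed from the tag totals in the file headers, was 0.681 for RPA1 and 0.959 for RBMX, and its part in the difference was not tested. In replicate 1 the medians were 0.995 for folds and 0.961 for tags per kb.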
